A study of Mus musculus with 18 samples.

Results

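The respiratory chain and ATP synthase genes of mouse were followed in cortex and skull after ischemic injury. Members were taken by gene name: structural subunits of complex I (Nduf names with a, b, c, s or v and a digit), complex II (Sdha to Sdhd), complex III (Uqcr names), complex IV (Cox4 to Cox8 names) and complex V (Atp5 names), and the subunits carried by mitochondrial DNA (mt-Nd, mt-Cytb, mt-Co and mt-Atp names). The rule took 94 of 25918 gene names, of which 13 are encoded in the mitochondrion (7 of complex I, 1 of complex III, 3 of complex IV, 2 of complex V) and 81 in the nucleus (37 of complex I, 4 of complex II, 8 of complex III, 16 of complex IV, 16 of complex V). A few names sit beside the chain rather than in it, such as Atp5s, a coupling factor, and Cox7a2l, a factor of supercomplexes, and the product of Ndufa4 is now counted with complex IV.

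All animals were BALB/c mice. Cortex was taken from controls and at days 2 and 6 of ischemic injury, and the interparietal bone of the skull from controls and at days 2 and 4 of ischemic injury, with 3 libraries in each of the 6 groups. The harvested tissue held ischemic as well as peri-ischemic regions, and no genetic change is named for any group. Libraries came from polyadenylated RNA and were read from both ends, and nothing in the labels says that the libraries of a group came from separate animals, so p-values measure the spread between these libraries, which may be technical.

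Electrons from NADH and succinate enter the chain at complexes I and II, pass through complex III and cytochrome c, and reach oxygen at complex IV. Complexes I, III and IV pump protons, and complex V uses their return to make ATP. The genes for this machinery lie in both genomes, except for complex II, whose subunits are all nuclear. Some nuclear subunits have alternative forms: Cox6a2, Cox7a1 and Cox8b are the forms of striated muscle, and Cox4i2 and Ndufa4l2 are known as genes that low oxygen induces and that vascular mural cells express.

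Library totals ran from 13005050 to 27654269 counts, with the deepest in cortex controls (23673255 to 27654269). Levels are given as CPM, counts scaled to a common library size. The sum of 10 neuronal markers was 9778 to 12160 CPM in cortex controls, while skull controls held 529 to 979 CPM of them and 15500 to 20200 CPM of 7 erythroid markers. Skeletal muscle markers were uneven in skull, from 31.4 to 5342 CPM. Choroid plexus markers were also uneven there, from 8.06 to 7936 CPM, with the highest value in day 2 library 2.

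The 13 mitochondrially encoded members were counted very unequally, and sequence copies in the nuclear genome run beside the low ones. Per kilobase of transcript, mt-Co1, the catalytic core of complex IV, stood at 11046 ± 781 CPM per kb (SD, n = 3) in cortex controls, and mt-Cytb, the core of complex III, at 7258 ± 398 (SD, n = 3). The complex IV subunit mt-Co2 stood at 72.4 ± 9.05 CPM per kb and mt-Nd4l of complex I at 2.61 ± 0.290 (SD, n = 3 each). In the GENCODE annotation of GRCm38 (mm10), a run of pseudogenes on the minus strand of chromosome 1 repeats mt-Co2, mt-Atp6, mt-Co3 and mt-Nd4l at 100% identity and mt-Nd3 at 99.7%, each over at least 99% of its length. The same run covers 63.6% of mt-Nd4 and 21.1% of mt-Atp8. The first 90 bases of the mt-Co2 gene and of its copy Gm28661 (chr1:24614885-24615565, minus strand) are shown because no letter tells them apart, over these bases or over the 681 aligned.
mt-Co2: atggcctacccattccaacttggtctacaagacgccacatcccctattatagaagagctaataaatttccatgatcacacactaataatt
Gm28661: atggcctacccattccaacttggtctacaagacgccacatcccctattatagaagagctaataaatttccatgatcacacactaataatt
The closest long copy of mt-Co1, Gm13340 (chr2:22588103-22589647, minus strand), differs at 37 of 1545 aligned bases. Bases 445 to 534 of the gene are set beside the copy to show 5 of these differences, in capitals.
mt-Co1: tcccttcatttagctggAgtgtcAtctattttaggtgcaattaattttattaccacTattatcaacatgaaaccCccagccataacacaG
Gm13340: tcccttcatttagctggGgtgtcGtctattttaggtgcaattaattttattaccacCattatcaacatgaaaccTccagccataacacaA

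The counts followed the same division. Over the 18 libraries mt-Co1 had 168593 to 490977 counts and its copy Gm13340 had 12 to 36. By contrast mt-Co2 had 505 to 1515 counts and its copy Gm28661 had 341 to 1003. For mt-Nd3 the copy Gm28438 held more counts (270 to 1520) than the mitochondrial gene (14 to 102), and mt-Atp8 had only 4 to 49. How reads that match both places were assigned is not given in the sources used here and was not tested. The values of mt-Co2, mt-Co3, mt-Atp6, mt-Atp8, mt-Nd3 and mt-Nd4l are therefore given below as uncertain, and the level of the mitochondrial genome rests on mt-Co1, mt-Cytb, mt-Nd1, mt-Nd2, mt-Nd4, mt-Nd5 and mt-Nd6. The last of these lies on the other strand of mitochondrial DNA, where its end overlaps the end of mt-Nd5, and without a stated strand setting its reads cannot be told from those of an antisense transcript. Among nuclear members, 12 of 81 have an annotated copy of at least 95% identity over at least 50% of the transcript (Ndufb11, Ndufs3, Ndufs5, Ndufs6, Uqcrb, Cox7c, Atp5c1, Atp5g2, Atp5h, Atp5k, Atp5l and Atp5o), and their values are uncertain in the same way. By that rule mt-Co1, mt-Nd4 and mt-Nd5 have a copy too, so their values carry the same limit. The copy of mt-Nd5, Gm4076, has 95.2% identity over 52.3%, and its counts were not compared. Gm28439, the copy of mt-Nd4, had 108 to 297 counts beside 40443 to 103909 for the gene.

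**Figure D1:**
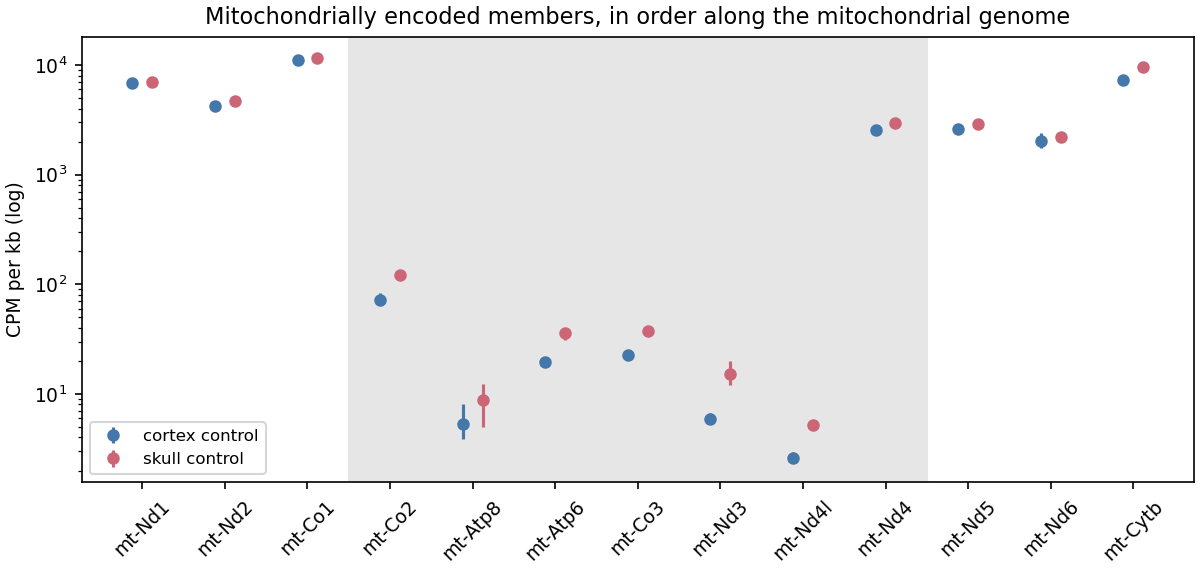
Level per kilobase of transcript (CPM per kb, log axis) of the 13 mitochondrially encoded members in cortex and skull controls, in their order along the mitochondrial genome; points are means of 3 libraries, bars run from the lowest to the highest library, and each tissue is on its own scale. Grey marks genes with a nuclear copy of at least 99% identity over all or part of the gene: 6 of the 7 lie at or below 122 CPM per kb, and mt-Nd4, which is covered in part, does not.

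The share of all counts that came from the 13 mitochondrially encoded members set skull at day 2 apart from its controls, and did not do so in cortex. It was 4.32%, 4.76% and 4.37% in the cortex controls, 4.76%, 4.63% and 5.24% at day 2 and 4.53%, 4.90% and 4.41% at day 6, so the cortex groups overlapped. In skull it was 5.16%, 5.62% and 5.38% in controls and 3.70%, 3.82% and 4.22% at day 2, with every day 2 library below every control. At day 4 it was 5.09%, 3.66% and 3.75%, with library 1 apart from the others. No test was made on these shares.

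The nuclear members as a sum moved otherwise. They held 0.828% to 0.864% of counts in cortex controls. The cortex range was 0.750% to 0.777% at day 2, below the controls, and 0.708% to 0.836% at day 6. In skull they held 0.614% to 0.667% in controls. The skull range was 0.592% to 0.692% at day 2 and 0.513% to 0.526% at day 4, where all libraries lay below the controls. The ratio of mitochondrial to nuclear counts was higher at day 2 in cortex (5.98 to 6.99 against 5.06 to 5.52 in controls) and lower at day 2 in skull (5.52 to 7.08 against 8.34 to 8.42). Day 4 skull libraries had ratios of 9.67, 7.13 and 7.20, on both sides of the controls.

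**Figure D2:**
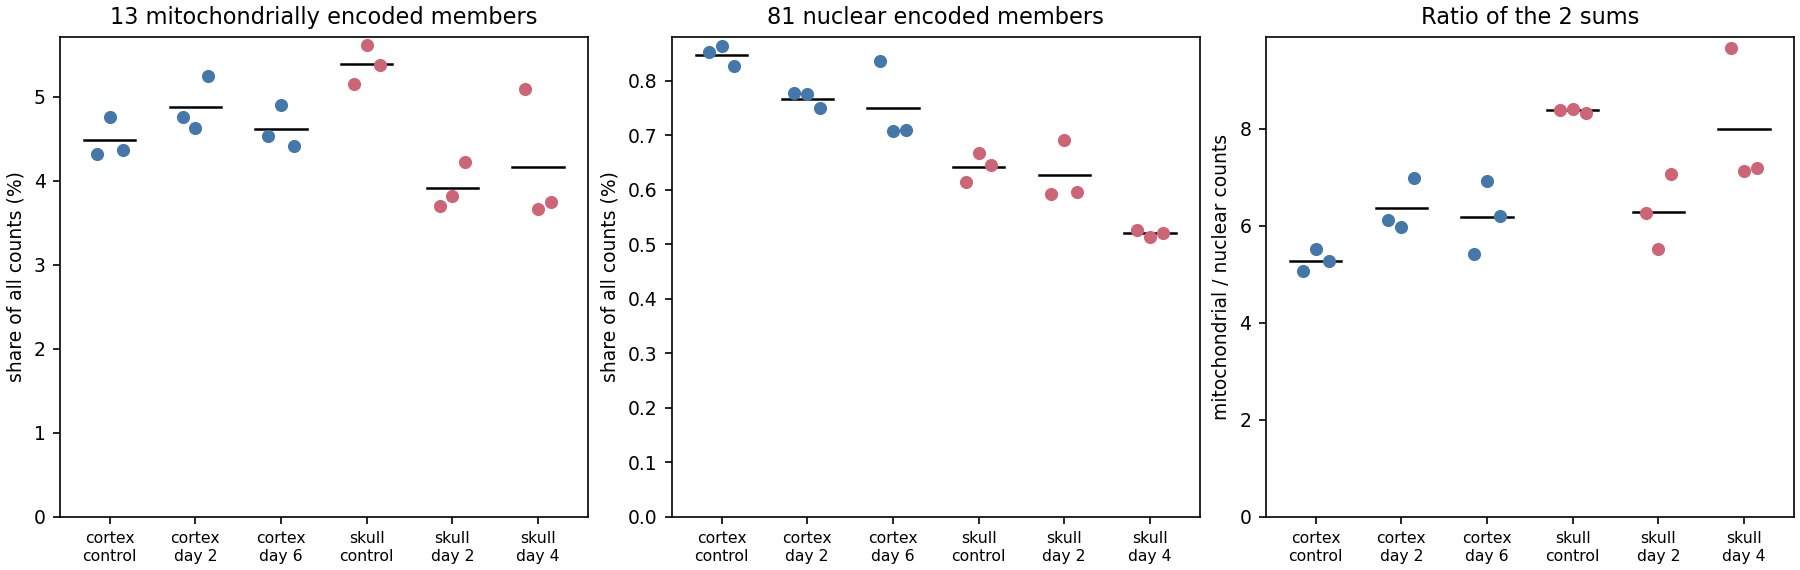
Share of all counts (%) from the 13 mitochondrially encoded members, from the 81 nuclear members, and the ratio of these sums, for each of 18 libraries (points; lines are group means, cortex in blue and skull in red). The mitochondrial share of the skull day 2 libraries (3.70% to 4.22%) lies below that of all skull controls (5.16% to 5.62%), and the nuclear share of the skull day 4 libraries (0.513% to 0.526%) below all skull controls (0.614% to 0.667%).

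In cortex at day 2 the nuclear members leaned low while the mitochondrially encoded ones showed no call. Of 80 nuclear members tested, 20 fell and 0 rose at an adjusted p below 0.05 (edgeR's quasi-likelihood test, Benjamini-Hochberg over all genes), beside 24.7% of all genes called in either direction (14.7% higher, 9.99% lower). The median log2 change was -0.24 over nuclear members and 0.00 over all genes, and 73 of the 80 nuclear values were negative. Control and day 2 libraries did not overlap for 51 of the 80, beside 39.0% of all genes. Of the 13 mitochondrially encoded members 0 were called, 0 had an unadjusted p below 0.05, and DESeq2 and limma voom also called 0. Their median log2 change was 0.00, with mt-Co1 at -0.06 (standard error, SE, 0.10), mt-Cytb at 0.09 (SE 0.10) and mt-Nd4 at 0.15 (SE 0.10).

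Complex I gave 9 of the calls among its 37 nuclear members. Ndufv1, the flavoprotein that takes electrons from NADH, read 139, 140 and 137 CPM in controls and 105, 107 and 110 CPM at day 2. The groups lay well apart, and the log2 change was -0.37 (SE 0.09, adjusted p = 0.00635). Ndufb6, an accessory subunit of the membrane arm, read 26.2, 22.7 and 24.5 CPM in controls and 17.0, 17.5 and 15.5 CPM at day 2, again without overlap, with a log2 change of -0.55 (SE 0.13, adjusted p = 0.00640). Ndufs7, which carries the last iron-sulfur cluster before ubiquinone, fell by 0.45 on the log2 scale (SE 0.13), and the accessory subunits Ndufa5 and Ndufa12 fell by 0.46 (SE 0.14) and 0.48 (SE 0.14). Ndufa1, Ndufb8, Ndufa11 and Ndufb10 fell by 0.30 to 0.44. The other nuclear members of complex I were not called, and Ndufa4l2 had the highest of all their values, 0.75 (SE 0.35, adjusted p = 0.144).

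The calls in complexes II to V were falls as well, although complex II was split, with 2 values below and 2 above 0. In complex II, the iron-sulfur subunit Sdhb read 96.0, 101 and 88.5 CPM in controls and 83.3, 80.4 and 73.4 CPM at day 2. The change of Sdhb was -0.27 (SE 0.09, adjusted p = 0.0387), while the flavoprotein Sdha was at -0.25 (SE 0.09, adjusted p = 0.068) and the membrane anchors Sdhc and Sdhd at 0.04 (SE 0.10) and 0.09 (SE 0.08). In complex III 3 of 8 fell: Uqcrfs1, the Rieske iron-sulfur protein, read 91.5, 96.5 and 93.1 CPM in controls and 74.8, 72.1 and 74.9 CPM at day 2 (log2 change -0.34, SE 0.08, adjusted p = 0.00580). The core protein Uqcrc1 fell by 0.29 (SE 0.08) and the small subunit Uqcrq by 0.34 (SE 0.12).

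In complex IV 5 of 15 tested members fell. Cox6c read 177, 184 and 170 CPM in controls and 143, 135 and 141 CPM at day 2, with no overlap (log2 change -0.34, SE 0.09, adjusted p = 0.0116). Cox8a, Cox7a2 and Cox5a fell by 0.35 (SE 0.11), 0.31 (SE 0.10) and 0.43 (SE 0.15), with Cox5a just under the threshold. The muscle form Cox6a2, present at 2.80 to 5.49 CPM in controls and 1.05 to 2.53 CPM at day 2, fell by 1.08 (SE 0.34, adjusted p = 0.0333). Of the list of skeletal muscle markers, which includes Pvalb, 4 of 9 tested genes also fell (summed level 75.3 to 121 CPM in controls, 61.9 to 82.0 CPM at day 2). Neuronal markers fell at day 2 as well, as given below. Whether the muscle list measures muscle RNA in cortex was not tested, nor was the part of any cell type in the change of Cox6a2. Cox8b was too low in cortex to be tested.

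Complex V had 2 calls among 16 members, and 1 of them was the lowest-p member of the whole set. Atp5g1 is 1 of the 3 genes that encode the c subunit of the proton-driven ring. It read 43.9, 47.6 and 48.2 CPM in controls and 26.0, 35.8 and 28.01 CPM at day 2, so every day 2 library lay below every control (log2 change -0.64, SE 0.14, adjusted p = 0.00525). The delta subunit gene Atp5d read 128, 149 and 128 CPM in controls and 82.7, 109 and 98.2 CPM at day 2 (log2 change -0.48, SE 0.12, adjusted p = 0.00941). Atp5g3, another c-subunit gene, read 143 to 147 CPM in controls and 122 to 128 CPM at day 2 and was not called.

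**Figure D3:**
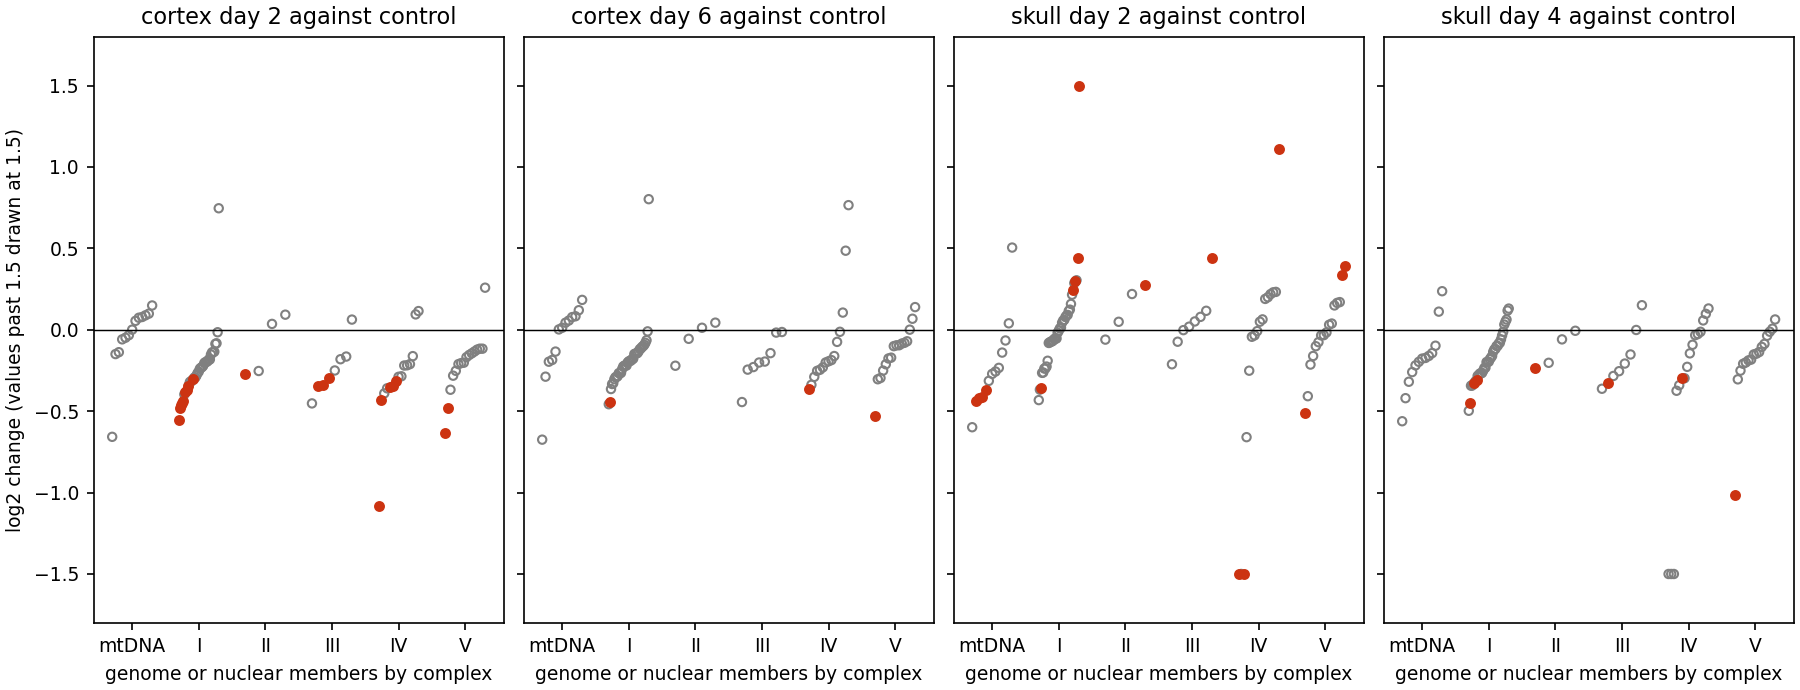
Log2 change of each tested member against the control group of its tissue, in 4 comparisons; mtDNA is the mitochondrially encoded set and I to V are the nuclear members of each complex, filled red where the adjusted p is below 0.05 (edgeR). Values past 1.5 either way are drawn at 1.5: Ndufa4l2 (2.35), Cox6a2 (-3.92), Cox7a1 (-1.84) and Cox8b (-2.05) in skull at day 2, and Cox6a2 (-2.78), Cox7a1 (-2.14) and Cox8b (-2.36) in skull at day 4.

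Genes around the chain were read from lists of the pathway. In cortex at day 2, 6 of 16 genes of pyruvate dehydrogenase and the citric acid cycle fell and 1 rose. Idh3a, a subunit of isocitrate dehydrogenase, fell by 0.41 (SE 0.09), while Suclg2 rose by 0.42 (SE 0.13). Cyc1, cytochrome c1 of complex III, which the name rule does not take, fell by 0.40 (SE 0.10, adjusted p = 0.00761). Assembly factors gave 2 falls of 15 for complex I (Ndufaf5 and Ndufaf3), 2 of 10 for complexes II and III (Ttc19 and Sdhaf3) and 2 of 19 for complex IV (Cox14 and Cox10), beside 9.99% of all genes lower. The 3 genes of complex V assembly had a median log2 change of -0.12. Of 22 genes that keep or express mitochondrial DNA 2 rose, the single-strand binding protein Ssbp1 by 0.40 (SE 0.12) and Pnpt1 by 0.45 (SE 0.14), beside 14.7% of all genes higher. Of 16 regulators of biogenesis 3 rose, with Gabpa (a subunit of the factor NRF2) at 0.56 (SE 0.11) and Pprc1 at 0.54 (SE 0.13), and 3 fell, among them the coactivator Ppargc1a at -0.44 (SE 0.11). The chaperonin Hspd1 rose by 0.50 (SE 0.09), and the uncoupling protein gene Ucp2 by 2.63 (SE 0.36). The list of Hspd1, mitochondrial carriers, import and structure, was summed at 3198 to 3410 CPM in controls and 2993 to 3291 CPM at day 2. That of Ucp2, mitophagy and uncoupling, was summed at 512 to 573 CPM in controls and 502 to 549 CPM at day 2.

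Cell type markers moved with these values. Of 10 neuronal markers 8 fell, with a median log2 change of -0.54, and their summed level went from the 9778 to 12160 CPM of controls into a range of 6953 to 7860 CPM at day 2. By day 6 it was 9409 to 10240 CPM. All 8 microglia and macrophage markers rose at day 2 (summed level 146 to 172 CPM in controls, 377 to 492 CPM at day 2), and none of these defining markers was at 0. In bulk tissue fewer cells of a type and less RNA per cell cannot be told apart, and the part of cell makeup in the fall of the nuclear members was not tested. The 20 calls also leaned on the scaling and on single libraries: there were 6 with plain library totals, 6 without control library 2, 10 without control library 3 and 10 without day 2 library 3. Ndufv1, Ndufb6, Uqcrfs1 and Atp5g1 kept their call in all alternatives run for this comparison, 9 of settings and 6 with a library left out.

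At day 6 of cortex few members were called. Of 80 nuclear members 3 fell and 0 rose, beside 10.3% of all genes called (7.93% higher, 2.38% lower). Libraries did not overlap for 21 of the 80, beside 30.9% of all genes. The median log2 change was -0.19 over nuclear members and -0.02 over all genes. Atp5g1 read 38.3, 27.0 and 31.4 CPM, below all controls (log2 change -0.53, SE 0.14, adjusted p = 0.0302). Ndufs6, a small accessory subunit of complex I, read 35.2, 34.8 and 34.4 CPM in controls and 25.1, 25.5 and 26.2 CPM at day 6, a change of -0.44 (SE 0.11, adjusted p = 0.0224). Its value is uncertain because of its near-identical annotated copy. Cox7a2 fell by 0.37 (SE 0.10, adjusted p = 0.0374). None of the 13 mitochondrially encoded members was called (0 at an unadjusted p below 0.05, and 0 by DESeq2 and limma voom), and their median was 0.01. The count of 3 became 1 without control library 1 and 0 without control library 2, control library 3, day 6 library 2 or day 6 library 3, and 15 without day 6 library 1.

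Between day 6 and day 2 of cortex, 0 of 93 members tested were called by edgeR, beside 11.6% of all genes (5.30% higher, 6.26% lower), and DESeq2 and limma voom also called 0. At an unadjusted p below 0.05, 7 nuclear members were higher at day 6 (among them Ndufv1 at 0.22 and Sdhb at 0.22, both on the log2 scale) and 0 lower. Libraries did not overlap for 10 nuclear members, beside 30.5% of all genes. Median log2 differences were 0.06 over nuclear members and -0.01 over mitochondrially encoded ones. Without day 2 library 1 the count of calls was 1.

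Since most nuclear values had 1 sign in cortex at day 2, the promoters of the nuclear members were read. RefSeq promoter sequences (GRCm38.p6, 250 bases before to 50 after the start) matched 65 of the 81 nuclear members. The NRF1 core, shown in capitals in the stretches printed here, was sought on both strands because NRF1 is a classical regulator of these genes. It stood in 5 of the 65 promoters (7.69%): those of Atp5g2, Atp5k, Cox6a1, Ndufa11 and Uqcrc1, and in 290 of 27025 promoters of all genes (1.07%). Of the members that fell in cortex at day 2, 17 had a promoter and 2 of those (Ndufa11 and Uqcrc1, 11.8%) held the core; of the other 48, 3 did (6.25%). The ETS core CCGGAAG stood in 16 of 65 (24.6%; 9.93% of all genes) and the CREB site TGACGTCA in 4 of 65 (6.15%; 2.03% of all genes), both on either strand. The ETS core was in 3 of the 17 that fell (17.6%) and 13 of the other 48 (27.1%), and the CREB site in 2 of the 17 (11.8%) and 2 of the 48 (4.17%). No test was made on these shares. The promoters of all genes were taken whatever the level of the gene or the base content of the promoter. Their shares are therefore not matched to the members. Matches of different motifs that share bases were not counted apart. A match is a description of the letters and not a measured site. Stretches upstream of the start of 4 of these genes are shown for the place of the core, in capitals: Atp5g2 at chr15:102671048-102671129 (minus strand), Atp5k at chr5:108434400-108434489 (minus), Cox6a1 at chr5:115349071-115349160 (minus) and Ndufa11 at chr17:56717662-56717751 (plus).
Atp5g2: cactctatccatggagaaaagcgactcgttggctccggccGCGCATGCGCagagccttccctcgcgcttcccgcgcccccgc
Atp5k: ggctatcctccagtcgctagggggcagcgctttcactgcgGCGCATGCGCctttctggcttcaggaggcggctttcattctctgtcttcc
Cox6a1: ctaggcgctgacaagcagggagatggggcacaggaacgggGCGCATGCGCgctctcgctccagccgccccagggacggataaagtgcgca
Ndufa11: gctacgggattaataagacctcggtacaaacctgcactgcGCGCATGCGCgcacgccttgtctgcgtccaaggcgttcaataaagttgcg

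In skull at day 2 the mitochondrially encoded members were low. The nuclear ones went both ways, with a smaller share called (16.05%) than over all genes. Of 13 mitochondrially encoded members 4 fell and 0 rose, and of 81 nuclear members 9 rose and 4 fell, beside 34.4% of all genes called (17.8% higher, 16.6% lower). The median log2 change was -0.27 over the mitochondrially encoded members (-0.37 without the 6 uncertain ones), 0.01 over the nuclear ones and -0.01 over all genes. Libraries of the groups did not overlap for 7 of the 13 and 22 of the 81, beside 47.7% of all genes.

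The falls were in complexes I and IV. mt-Co1 read 17840, 18220 and 17280 CPM in skull controls and 13100, 12540 and 14370 CPM at day 2. All day 2 libraries were below all controls, and the log2 change was -0.41 (SE 0.12, adjusted p = 0.0245). mt-Nd4 read 4189, 3916 and 3983 CPM in controls and 2905, 2961 and 3192 CPM at day 2 (log2 change -0.42, SE 0.11, adjusted p = 0.0163). The complex I subunits mt-Nd5 and mt-Nd2 fell by 0.37 (SE 0.11) and 0.44 (SE 0.14). Of these genes, mt-Co1, mt-Nd4 and mt-Nd5 are among the members with a near-identical annotated copy. mt-Nd1 at -0.31 (SE 0.12, adjusted p = 0.0610) and mt-Cytb at -0.27 (SE 0.12, adjusted p = 0.113) were not called, though their groups did not overlap. mt-Nd6, of the other strand, was at 0.04 (SE 0.13). Among the 6 members given as uncertain, mt-Co2 was at -0.26 (SE 0.15), mt-Co3 at -0.23 (SE 0.18), mt-Atp6 at -0.14 (SE 0.20), mt-Nd3 at -0.60 (SE 0.31) and mt-Nd4l at -0.07 (SE 0.35), and mt-Atp8 at 0.51 (SE 0.41), none of them called.

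The mitochondrial calls leaned on single libraries: 0 of 13 were called without control library 3, day 2 library 1 or day 2 library 2, and 1 without control library 1. The median kept its sign in each of these fits, from -0.38 to -0.25. Erythroid markers, which differ between the groups, were summed at 15500 to 20200 CPM in controls and 1720 to 10890 CPM at day 2 (2 of 7 fell), and haemoglobin took 1.51% to 2.13% of counts in controls and 0.165% to 1.01% at day 2. Neuronal markers fell as well, 9 of 10, from 529 to 979 CPM in controls to 60.3 to 161 CPM, and B cell markers, 6 of 7. With haemoglobin and the 20 most abundant nuclear genes taken out of the total, the mean mitochondrial share was 6.29% in controls and 4.58% at day 2. The part of cell makeup in the lower mitochondrial values was not tested.

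The nuclear members that rose in skull at day 2 were led by Ndufa4l2 and Cox4i2. Ndufa4l2 (chr10:127514967-127517154, plus strand), a relative of Ndufa4 known to lower the activity of the chain, read 10, 12.8 and 10.7 CPM in controls, 50.1, 59.6 and 60.5 CPM at day 2 and 11.5, 12.6 and 10.5 CPM at day 4. The day 2 libraries stood apart from all others of the tissue, and day 4 overlapped the controls. The log2 change at day 2 was 2.35 (SE 0.13, adjusted p = 2.63e-05), a fold of 5.08. Cox4i2 (chr2:152754173-152765037, plus strand), the alternative form of the complex IV subunit Cox4i1, read 5.17, 5.33 and 5.12 CPM in controls, 11.04, 12.9 and 9.85 CPM at day 2 and 6.09, 4.69 and 6.30 CPM at day 4. It rose by 1.11 (SE 0.18, adjusted p = 0.00157) at day 2, again with no overlap.

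Their constitutive partners were not called. Ndufa4 read 125, 130 and 125 CPM in controls and 124, 152 and 126 CPM at day 2, and Cox4i1 138, 133 and 136 CPM in controls and 134, 165 and 126 CPM at day 2, and in both genes day 2 library 2 was the highest. The per-length scale takes 1 transcript of each gene, of 468 bases for Ndufa4 and 934 for Ndufa4l2. All exons of these genes cover 1381 and 1095 bases. The size of a share depends on that choice. On the per-length scale, Ndufa4l2 made up 3.84% to 4.68% of the sum of Ndufa4l2 and Ndufa4 in controls. This share was 16.4% to 19.4% at day 2 and had come to 4.91% to 5.86% by day 4. Cox4i2 made up 3.70% to 3.96% of the sum with Cox4i1 in controls. Its share was 7.37% to 7.80% at day 2, apart from the 3.26% to 4.74% of day 4. Of 8 mural cell markers 1 rose and 4 fell at day 2, with a summed level of 816 to 870 CPM, against 891 to 1046 CPM in controls and 1203 to 1276 CPM at day 4, so that sum was lowest at day 2. Ndufa4l2 and Cox4i2 kept their call in all alternatives run for this comparison, 9 of settings and 6 with a library left out.

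**Figure D4:**
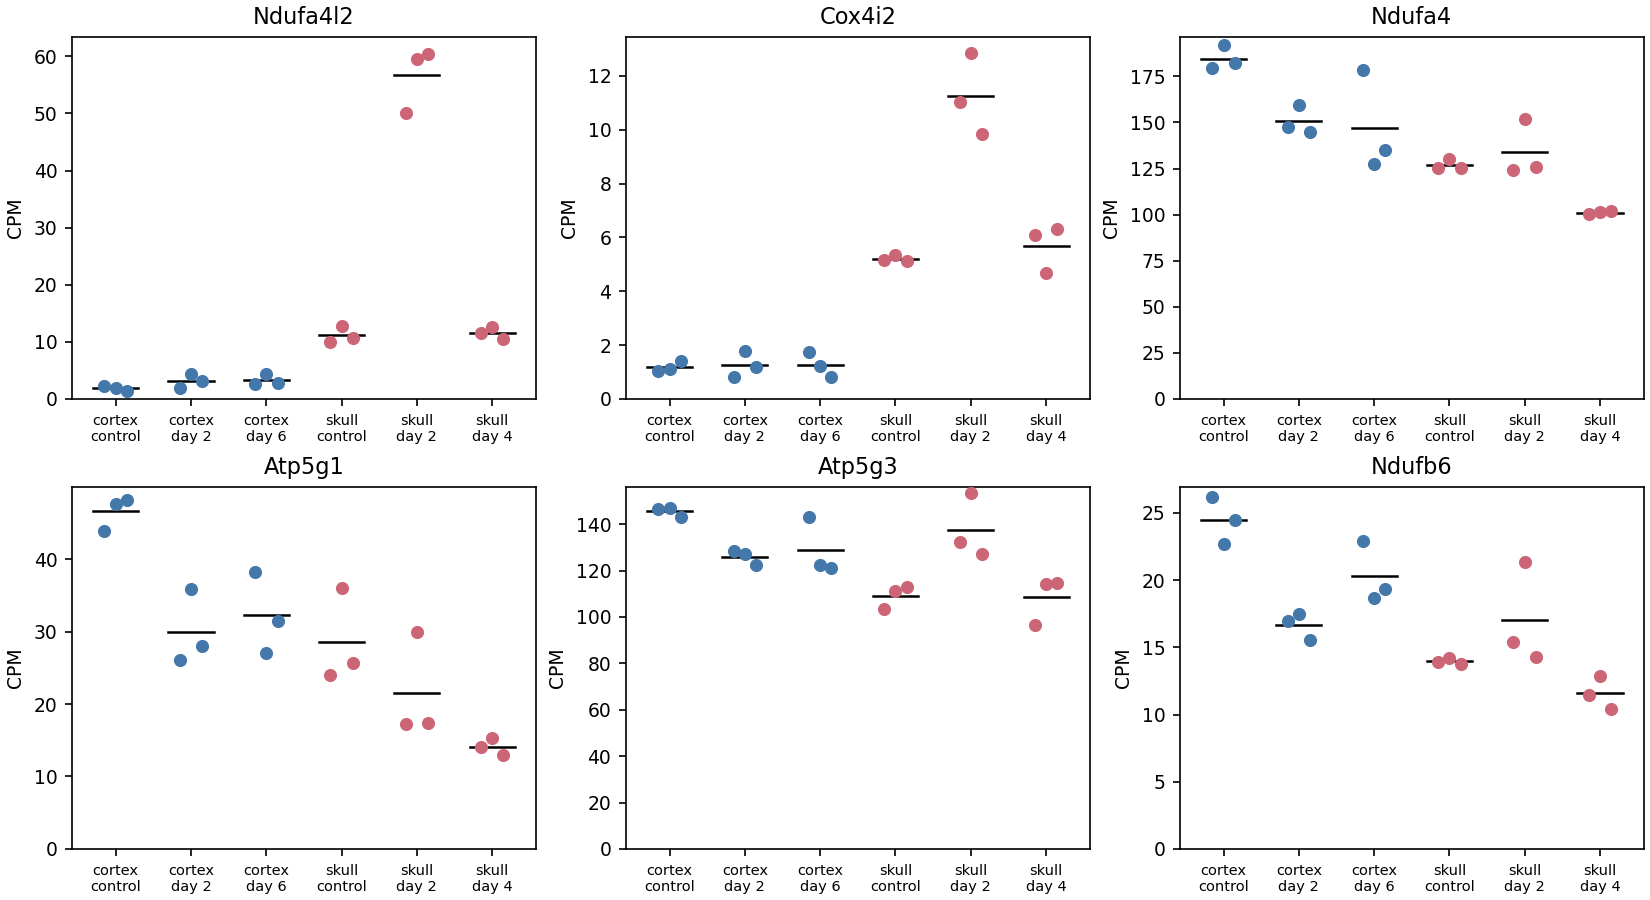
Level in CPM of 6 nuclear members in each of 18 libraries (points; lines are group means, cortex in blue and skull in red, each tissue on its own scale). Ndufa4l2 and Cox4i2 stand high in the 3 skull day 2 libraries (50.1 to 60.5 CPM and 9.85 to 12.9 CPM) against at most 12.8 CPM and 6.30 CPM in the other skull libraries, Ndufa4 and Atp5g3 are members compared in the text, and Atp5g1 and Ndufb6 lie below all cortex controls in each cortex day 2 library.

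The other members that rose were spread over the complexes. In complex I, Ndufs4 rose by 0.44 (SE 0.10, adjusted p = 0.00871), Ndufv2, the partner of Ndufv1 at the NADH site, by 0.30 (SE 0.08) and Ndufa8 by 0.25 (SE 0.08). Sdhd of complex II rose by 0.28 (SE 0.10, adjusted p = 0.0477) and Uqcrb of complex III by 0.44 (SE 0.10, adjusted p = 0.00732). Uqcrb is among the members with a near-identical annotated copy. Of complex V, the stalk subunit gene Atp5f1 read 182, 187 and 179 CPM in controls and 237, 242 and 240 CPM at day 2, far apart (log2 change 0.39, SE 0.07, adjusted p = 0.00228). The c-subunit gene Atp5g3 rose by 0.33 (SE 0.10), from 104, 111 and 113 CPM to 133, 153 and 127 CPM. Against these, Ndufa13 of complex I fell by 0.35 (SE 0.12) and Atp5s by 0.51 (SE 0.16). The 9 nuclear rises became 5 without control library 3 and 5 with plain library totals. The 4 nuclear falls became 0 without control library 3, day 2 library 1 or day 2 library 3, 1 without control library 1, 2 without control library 2, 8 without day 2 library 2 and 7 with plain library totals. Of the other forms and subunits followed throughout, Sdha (-0.06, SE 0.07), Sdhb (0.05, SE 0.06), Sdhc (0.22, SE 0.09), Cox6a1 (0.23, SE 0.17), Cox6b1 (0.20, SE 0.08), Cox6b2 (-0.66, SE 0.29) and Cox8a (-0.25, SE 0.17) were not called.

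Genes of neighbouring pathways are given beside the 17.8% of all genes higher and 16.6% lower in this comparison. Of 17 genes of mitochondrial carriers, import and structure 9 rose and 1 fell in skull at day 2. The chaperones of protein import Hspd1 and Hspa9 rose by 0.87 (SE 0.08) and 0.68 (SE 0.07), with Hspd1 at 152 to 166 CPM in controls and 289 to 296 CPM at day 2, while the adenine nucleotide carrier of muscle and heart, Slc25a4, fell by 0.35 (SE 0.11). In the list of pyruvate dehydrogenase and the citric acid cycle 6 of 16 rose, led by Dld at 0.45 (SE 0.07) and Dlat at 0.38 (SE 0.08), and Idh3b fell by 0.28 (SE 0.07). Higd1a, a respirasome partner that low oxygen is known to induce, read 25.1, 19.3 and 18.1 CPM in controls and 40.6, 51.7 and 45.9 CPM at day 2 (log2 change 1.14, SE 0.14, adjusted p = 4.92e-04). Bnip3, a mitophagy receptor also known for induction by low oxygen, read 19.5, 15.04 and 16.3 CPM in controls and 45.4, 42.1 and 63.6 CPM at day 2 (log2 change 1.57, SE 0.18, adjusted p = 3.67e-04). The summed level of its list, mitophagy and uncoupling, went the other way, with 586 to 691 CPM in controls and 483 to 536 CPM at day 2. Of complex I assembly factors 3 of 15 rose (Timmdc1 at 0.55, Ndufaf2 at 0.58 and Nubpl at 0.60), and of those of complex IV 2 of 19 fell (Surf1 at -0.41 and Cox17 at -0.51), shares near or below those over all genes.

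The muscle forms of complex IV were highest in the control libraries with the most muscle RNA. Cox6a2 read 58.5, 13.8 and 45.9 CPM in skull controls, 0.542, 3.13 and 4.07 CPM at day 2 and 14.5, 0.659 and 1.63 CPM at day 4. The summed level of 13 skeletal muscle markers in the same libraries was 5342, 1020 and 3668 CPM, then 31.4, 303 and 1135 CPM, then 1858, 129 and 104 CPM. Within controls and within day 2 the libraries had the same order by Cox6a2 and by the markers, and at day 4 library 1 was highest by both. Cox7a1 had the same order as the markers within controls and within day 2. Cox8b did not at day 2, where it read 0.135, 5.19 and 2.30 CPM, with library 2 above library 3 and also above control library 2 (3.78 CPM). Cox6a2 fell by 3.92 (SE 1.2, adjusted p = 0.0467) and Cox7a1 by 1.84 (SE 0.59, adjusted p = 0.0387) at day 2, and Cox8b was at -2.05 (SE 1.1, adjusted p = 0.175). The 13 muscle markers had a median log2 change of -3.10 at day 2, with adjusted p from 0.0718 to 0.643. The calls of the forms leaned on few libraries. Cox6a2 lost its call with any library left out and Cox7a1 with any but control library 2 left out. Brown adipocyte markers were summed at 91.1 to 103 CPM in controls, 61.8 to 77.8 CPM at day 2 and 92.1 to 118 CPM at day 4. The part of muscle or of other cell types in the change of these forms was not tested.

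**Figure D5:**
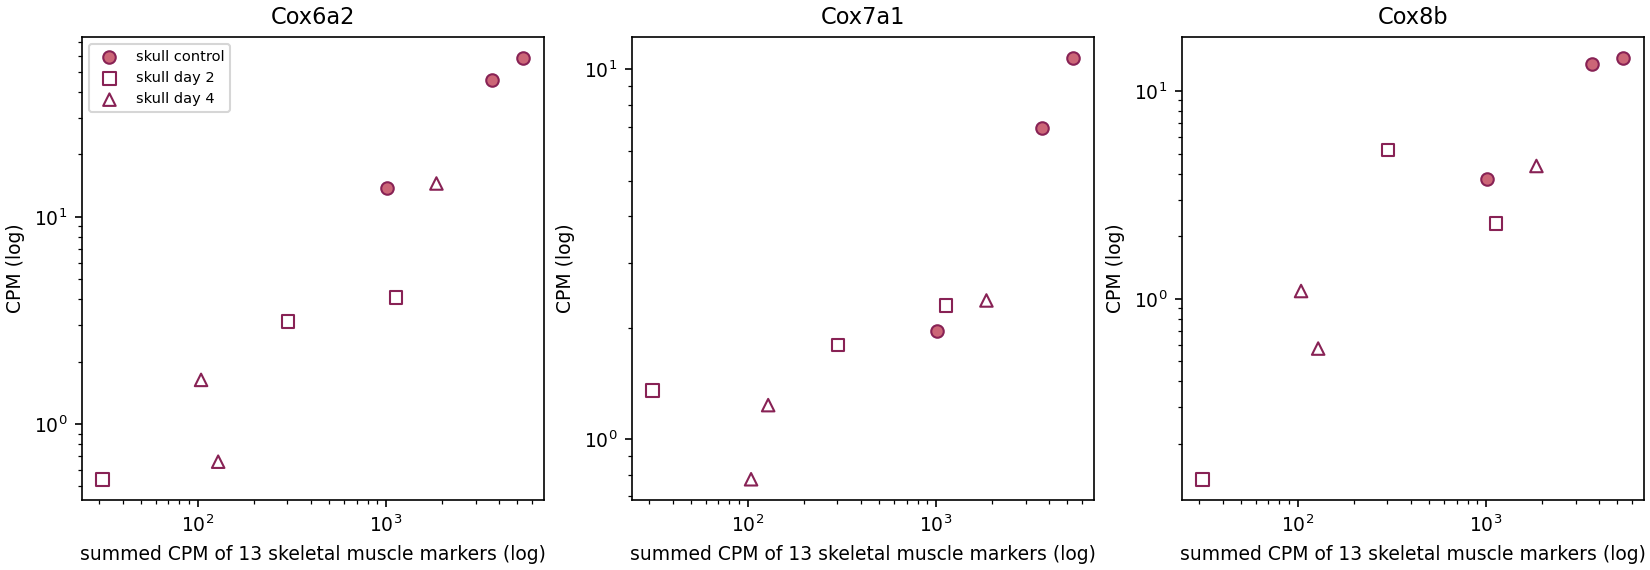
Level of the 3 muscle forms of complex IV (CPM, log axis) against the summed level of 13 skeletal muscle markers (CPM, log axis) in the 9 skull libraries, with controls as filled circles, day 2 as squares and day 4 as triangles. The controls with 5342 and 3668 CPM of muscle markers hold the highest Cox6a2 levels, 58.5 and 45.9 CPM, and the day 2 library with 31.4 CPM of muscle markers the lowest, 0.542 CPM.

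At day 4 in skull the nuclear members lay low against controls. Of 81 nuclear members 7 fell and 0 rose, beside 10.6% of all genes called (5.83% higher, 4.79% lower). Libraries did not overlap for 35 of the 81, beside 31.1% of all genes. The median log2 change was -0.18 over nuclear members, -0.18 over mitochondrially encoded ones and 0.02 over all genes, and 70 of 81 nuclear values were negative. Atp5g1 read 24.0, 35.96 and 25.6 CPM in controls and 14.1, 15.3 and 13 CPM at day 4, without overlap, and fell by 1.01 (SE 0.24, adjusted p = 0.0297), a fold of 2.02. Uqcrc2, a core protein of complex III, fell by 0.33 (SE 0.08), and Ndufa5, Ndufs3 and Ndufa4 by 0.45 (SE 0.12), 0.31 (SE 0.08) and 0.33 (SE 0.09). Ndufs3 is among the members with a near-identical annotated copy. Sdhb and Cox6c fell by 0.23 (SE 0.06) and 0.30 (SE 0.08). Cytochrome c itself, Cycs, outside the name rule, fell by 0.77 (SE 0.16) and Idh3a by 0.58 (SE 0.10).

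None of the 13 mitochondrially encoded members was called at day 4. At an unadjusted p below 0.05, 3 were lower, DESeq2 called 2 lower and limma voom 0. mt-Nd2 read 4492, 3267 and 3174 CPM at day 4 against 5119, 4639 and 4870 CPM in controls (log2 change -0.42, SE 0.14, adjusted p = 0.0912). Library 1 of day 4 sat nearest to the controls, as in the mitochondrial share. It also held the most muscle RNA of its group. In controls the orders were opposite. Control libraries 1, 2 and 3 had 5342, 1020 and 3668 CPM of muscle markers and mitochondrial shares of 5.16%, 5.62% and 5.38%. The part of muscle in these shares was not tested. Without day 4 library 1, 3 mitochondrially encoded members fell and 1 nuclear member did. The nuclear count of 7 became 2 without control library 1 and 0 without control library 3, day 4 library 2 or day 4 library 3. Without control library 3 there were 10 calls over all genes. DESeq2 called 14 nuclear members, limma voom 4, and plain library totals gave 26. Neutrophil markers rose in 8 of 9 cases at day 4 (1309 to 2356 CPM in controls, 4300 to 8147 CPM at day 4). Other marker sums lay apart from controls too. Among them, osteoblast markers stood at 49600 to 73950 CPM (controls 21500 to 40480) and erythroid markers at 6468 to 8689 CPM (controls 15500 to 20200). Mural markers stood at 1203 to 1276 CPM (controls 891 to 1046), and microglia and macrophage markers at 602 to 788.5 CPM (controls 464 to 486). The part of these shifts in the lower nuclear members was not tested.

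From day 2 to day 4 in skull the nuclear members went down. Of 81, 17 were lower at day 4 and 0 higher, beside 21.6% of all genes called (10.6% higher, 11.1% lower). Libraries did not overlap for 38 of the 81, beside 42.6% of all genes. Of the 13 mitochondrially encoded members 0 were called (0 at an unadjusted p below 0.05, 0 by DESeq2 and 0 by limma voom). Ndufa4l2 was lower by a log2 difference of -2.30 (SE 0.13, adjusted p = 3.64e-05) and Cox4i2 by -0.98 (SE 0.18, adjusted p = 0.00505). In complex V, Atp5f1, the catalytic beta subunit Atp5b, the alpha subunit Atp5a1, Atp5g3 and Atp5h were lower, by -0.23 to -0.38, with Atp5h just under the threshold. In complex IV, Cox7b, Cox6c, Cox6b1 and Cox7c were lower, by -0.29 to -0.56. Atp5h and Cox7c are among the members with a near-identical annotated copy. Uqcrc2 of complex III was at -0.38 (SE 0.08), and Sdhb of complex II at -0.28 (SE 0.06). Hspd1 and Hspa9 were lower as well, by -1.07 (SE 0.08) and -0.90 (SE 0.07), as were 10 of 17 genes of their list. Bnip3 was lower by -2.27 (SE 0.19) and Higd1a by -1.28 (SE 0.14). The list of Bnip3, mitophagy and uncoupling, was summed at 483 to 536 CPM at day 2 and 534 to 597 CPM at day 4. The count of 17 became 9 without day 2 library 2, day 4 library 1 or day 4 library 3. Day 2 library 2, which has the highest nuclear member share of the skull libraries (0.692%), also had 7936 CPM of choroid plexus markers, an epithelium rich in mitochondria, against 82.8 and 1598 CPM in the other libraries of its group, and the part of this was not tested.

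Whether cortex and skull responded differently at day 2 was tested as the difference of the 2 responses, cortex minus skull. Of 13 mitochondrially encoded members 3 had a higher difference and 0 a lower, and of 81 nuclear members 0 had a higher and 10 a lower, beside 17.6% of all genes called (14.0% higher, 3.60% lower). Over all genes the median difference was 0.20, so the values are read against that shift: the median was 0.37 over mitochondrially encoded and -0.18 over nuclear members. mt-Nd4 had a difference of 0.62 (SE 0.15, adjusted p = 0.0145), from 0.15 in cortex and -0.42 in skull. mt-Nd2 and mt-Nd5 had differences of 0.55 (SE 0.17) and 0.53 (SE 0.17). Of these genes, mt-Nd4 and mt-Nd5 are among the members with a near-identical annotated copy. With RLE factors the median of all genes was 0.13 and 1 mitochondrially encoded member was called, and with plain library totals it was 0.35 and 6 were called, with 4 nuclear members lower and 1 higher.

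Nuclear members with a lower difference came from complexes I, IV and V. Ndufa4l2 had a difference of -1.54 (SE 0.36, adjusted p = 0.0129). Its level in cortex was only 1.33 to 2.34 CPM in controls and 1.99 to 4.40 CPM at day 2. Ndufb6 had a difference of -0.79 (SE 0.20, adjusted p = 0.0215), Ndufs4 of -0.62 (SE 0.14) and Ndufa8 of -0.53 (SE 0.12). Atp5g3 read lower in all cortex day 2 libraries and higher in all skull day 2 libraries than in the controls of its tissue, with a difference of -0.49 (SE 0.11, adjusted p = 0.0134), and Atp5f1 and Atp5b had differences of -0.47 (SE 0.14) and -0.36 (SE 0.11). Cox4i2 at -0.96 (SE 0.37, adjusted p = 0.0932) was not called. Higd1a and Bnip3, outside the set, had differences of -1.35 (SE 0.20) and -1.57 (SE 0.24). The total of 13 members called became 8 without cortex control library 2, 7 without cortex control library 3, 6 without cortex day 2 library 3, 6 without skull control library 3, 8 without skull day 2 library 1 and 7 without skull day 2 library 2.

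The uninjured tissues differed across most of the set, as they did across most genes. Against skull controls, cortex controls had 50 nuclear members higher and 12 lower of 81, and 0 mitochondrially encoded members higher and 6 lower of 13, beside 70.9% of all genes called (34.5% higher, 36.4% lower). Libraries did not overlap for 73 of the 94, beside 76.7% of all genes. The median log2 difference was 0.39 over nuclear members, -0.43 over mitochondrially encoded members and -0.03 over all genes. Without the 6 uncertain members the mitochondrial median was -0.18, and over those 6 it was -0.84. Of the 6 mitochondrially encoded calls, 5 were members with a near-identical nuclear copy (mt-Co2, mt-Co3, mt-Atp6, mt-Nd3 and mt-Nd4l), and the other was mt-Cytb at -0.43 (SE 0.12, adjusted p = 0.0128). mt-Co1 was at -0.09 (SE 0.12) and was not called. On the scale of the 6 control libraries, mt-Co1 stood at 17180 ± 1213 CPM in cortex and 18320 ± 345 CPM in skull (SD, n = 3 each).

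Nuclear members of every complex were higher in cortex. Ndufa8 stood at 90.3 ± 4.69 CPM in cortex and 43.5 ± 1.72 CPM in skull (log2 difference 1.05, SE 0.08, adjusted p = 2.95e-05), and Uqcrc1 at 231 ± 2.02 and 117 ± 9.04 CPM (0.98, SE 0.09; SD, n = 3 each). Sdha, Cox4i1 and Atp5b were higher in cortex by 0.88 (SE 0.08), 0.94 (SE 0.09) and 0.76 (SE 0.09). The 12 that were lower in cortex included all 6 measured restricted forms. Cox4i2 was at a log2 difference of -2.15 (SE 0.24), and Cox6b2 stood at 1.76 ± 0.693 CPM in cortex and 11.04 ± 2.54 CPM in skull (SD, n = 3 each). Cox8b, Cox7a1, Cox6a2 and Ndufa4l2 were at log2 differences of -5.61 (SE 0.95), -3.54 (SE 0.64), -3.27 (SE 0.59) and -2.60 (SE 0.25). The epsilon subunit gene Atp5e went against its complex at -0.96 (SE 0.10). Genes of pyruvate dehydrogenase and the citric acid cycle were higher in cortex in 14 of 16 cases and lower in 1. The tissues were prepared from different organs of the mouse, so cell makeup and level per cell cannot be told apart here.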

How the data were processed

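The deposited table holds raw counts, whole reads per gene with no normalization by the authors, for 18 libraries. Alignment was with HISAT2 2.1.0 on the mm10 build, per the submitters' processing notes. Which program counted reads, on which annotation and with what treatment of strand and shared reads, is not given in the sources used here. There were 26783 lines for 25918 names; 865 surplus identical lines of 49 names were removed (Atp5o stands in 16 copies), and 4 pseudogene names ending in -ps were left out of the members. Totals ran from 13005050 to 27654269 counts.

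Counts were tested with edgeR 4.0.16 in R 4.3.3: filterByExpr by group (minimum count 10), TMM factors, robust quasi-likelihood fits and two-sided tests, Benjamini-Hochberg over all genes, called below an adjusted p of 0.05. Each tissue was fitted over its 9 libraries; the difference of day 2 responses used the 12 control and day 2 libraries, and the control comparison 6. Log2 changes use a prior count of 0.125, and the SE is the absolute log2 change over the square root of F. The code was tested on simulated data with 200 changed genes. Alternatives were RLE factors, no filter, a stricter filter (1 CPM in 3 libraries), DESeq2 1.42.0, limma 3.58.1 voom, a replicate block, the compared groups alone, library sizes without mitochondrial genes, each library left out in turn and, added after seeing the data, plain library totals. Members, lists and tests were chosen with earlier results of these data known.

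Named were all mitochondrially encoded members, the restricted forms with their partners, the 4 Sdh genes, up to 4 called members per complex and comparison by smallest adjusted p, and those against their complex; of other lists, up to 2 per list and comparison by smallest adjusted p, and members against their list. Other names were chosen after their values were seen. Copies were found by aligning GENCODE transcripts with blastn. Levels per kilobase use the length of the protein-coding transcript with the lowest number in its name.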

Additional observations from a re-analysis of the deposited data

Results flagged for a closer look

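The day 2 responses of cortex and skull differed by the interaction test (edgeR's quasi-likelihood test, Benjamini-Hochberg) for 13 members, given as cortex minus skull on the log2 scale beside a median of 0.20 over all genes. The nuclear members were Ndufa8 (-0.53), Ndufs4 (-0.62), Ndufa4l2 (-1.54), Atp5g3 (-0.49), Ndufv2 (-0.51), Ndufb6 (-0.79), Cox7a2 (-0.48), Atp5f1 (-0.47), Atp5b (-0.36) and Cox7b (-0.39). The mitochondrially encoded members were mt-Nd4 (0.62), mt-Nd2 (0.55) and mt-Nd5 (0.53). Groups of 3 libraries were not searched for outliers.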

How the results depend on the processing

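With 3 libraries a group, 1 library moved most counts of members called; with each left out in turn they ran from 6 to 17 in cortex at day 2, 0 to 15 at day 6, 0 to 1 between these days, 5 to 14 in skull at day 2, 0 to 10 at day 4, 9 to 15 between these days, 6 to 13 for the difference of responses and 54 to 67 between controls. Plain library totals, which put the median of all genes at 0.10 in cortex at day 2 and at -0.12 in skull at days 2 and 4, gave 6 calls in cortex at day 2 and 26 in skull at day 4. In skull at day 4 there were 3 calls with no filter, 16 with DESeq2 and 4 with limma voom, and DESeq2 gave 24 for the difference of responses. The cause was not tested.

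Whether replicate numbers pair the libraries was not settled by the values. In cortex, same-numbered deviations correlated from -0.04 to 0.23 and different-numbered ones from -0.30 to 0.14. In skull these ranges were -0.46 to 0.16 and -0.22 to 0.34. Of the libraries, 6 of 9 in cortex and 2 of 9 in skull correlated best with their own number. With a replicate block the calls were 10 in skull at day 2, 1 in skull at day 4 and 1 between the cortex days.

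Mitochondrial shares without haemoglobin and the 20 most abundant nuclear genes in the total were 4.88% in cortex at day 6 and 6.29%, 4.58% and 5.16% in skull controls, day 2 and day 4; with each library left out, mean shares ran from 4.34% to 4.57%, 4.70% to 5.0% and 4.47% to 4.72% in cortex controls, day 2 and day 6, and 5.27% to 5.50%, 3.76% to 4.02% and 3.70% to 4.42% in skull controls, day 2 and day 4. Ratios without mt-Co1 were 3.31, 4.13 and 3.95 in cortex and 5.45, 4.18 and 5.17 in skull; with each library left out the full ratios ran from 5.17 to 5.40, 6.05 to 6.56 and 5.82 to 6.57 in cortex and 8.37 to 8.40, 5.89 to 6.67 and 7.16 to 8.43 in skull.

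Signs reversed only for values that were not called: in skull at day 2 Cox4i1 (-0.058) and Ndufa4 (-0.015) without day 2 library 2, the low ends of ranges that reach 0.14 (Cox4i1) and 0.13 (Ndufa4) over the libraries left out, and with plain totals Ndufa4 (-0.027) and Sdhb (-0.055) at day 2, mt-Nd6 (-0.026), Ndufa4l2 (-0.10) and Cox4i1 (-0.085) at day 4, and Sdha (0.0088) and Sdhd (0.018) in the difference of responses. Depth limits mt-Atp8 (4 to 49 counts) and mt-Nd4l (4 to 39 counts).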

Other observations

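Atp5g1 fell in 3 of the comparisons with controls: cortex at day 2 (-0.64), cortex at day 6 (-0.53, which shares the controls of day 2) and skull at day 4 (-1.01, on the log2 scale by edgeR's quasi-likelihood test). Of the 20 members that fell in cortex at day 2 and the 7 that fell in skull at day 4, 4 were shared (Atp5g1, Cox6c, Ndufa5 and Sdhb), 20% of the first list and 57.1% of the other. Over the 16250 genes tested in both, 1678 fell in the first, 817 in the other and 364 in both, 21.7% and 44.6% of these lists. The comparisons share no library, and the overlap was not tested.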
